A study of Oreochromis niloticus with 12 samples.

Results

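The genes ciarta, bhlhe40, clocka and hlfa belong to the circadian clock or to its direct output, and their transcripts were followed in fast muscle of Nile tilapia. They are 4 of the 42609 genes in the tables of read counts, found by their NCBI symbols for Oreochromis niloticus. They were chosen by the difference between domesticated and wild fish in these same libraries, so that difference is given as a description, with no test. All 4 genes passed the filter on low counts that 8425 genes passed.

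The domesticated group held 6 females of the first generation under domestication, and the wild group held 6 wild females. All fish were 5 months old. Domesticated and wild fish are genetically paired, each domesticated fish with its own wild progenitor, under a shared number, so that D53 and W53 are the domesticated and the wild library of pair 53 (the other numbers are 63, 66, 68, 70 and 72). Each library is a separate fish, and p-values measure the spread between these fish. The labels give no time of day, light regime or date of sampling. Progenitor and progeny are different generations, so if the labelled ages hold they were sampled on different days, though no date is given. Whether their hour of sampling differed is unknown. A difference of day or hour between the groups cannot be told apart from the group.

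The vertebrate clock is a loop of transcription in nearly every cell. The proteins CLOCK and BMAL1 switch on E-box genes, among them the PER, CRY, BHLHE40 and CIART repressors, which in turn hold CLOCK and BMAL1 back, so that in the tissues studied the activating and the repressing limb peak at different times of day. Proline- and acid-rich (PAR) bZIP factors such as HLF act at D-boxes and carry the rhythm to output genes, where NFIL3 proteins bind the same sites as repressors. In zebrafish, clocks of peripheral tissues can be set by light directly. Skeletal muscle of mammals is known for a strong clock that times metabolic genes.

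Library totals were similar in both groups. The gene counts per library ran between 4312367 and 8478988 in domesticated fish and between 3395622 and 8472454 in wild fish. Values are read counts as CPM, that is per 1000000 reads, on totals scaled by the trimmed mean of M-values (TMM), with scaling factors of 0.614 to 1.29 in domesticated and 0.678 to 1.81 in wild libraries. Of the 8425 genes tested with limma, 1112 (13.2%) differed between domesticated and wild fish at a Benjamini-Hochberg adjusted p under 0.05, 548 lower and 564 higher in domesticated fish. The count was 628 without D70, 648 without D72, 668 without W66 and 696 without W70. With plain library totals the split was 593 lower and 87 higher, as the median log2 fold change of all genes then stood at -0.42 in place of -0.02. Fast muscle markers took 139343 to 242223 CPM in domesticated and 55265.8 to 278606 CPM in wild libraries, and 0 of the 7 tested markers differed. In pieces of muscle, fewer cells of a type and less RNA per cell cannot be told apart.

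All 4 clock transcripts had a lower mean in domesticated than in wild muscle. The difference was widest for ciarta (log2 fold change -1.59) and bhlhe40 (-1.35), smaller for clocka (-1.15) and smallest for hlfa (-0.71). Of the 4 genes, 3 were lower in the domesticated fish of all 6 pairs, as were 9.1% of all genes tested. No gene (0 of 4) had every domesticated library below every wild one, which held for 2.17% of all genes tested. These shares restate the choice of the genes.

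**Figure D1:**
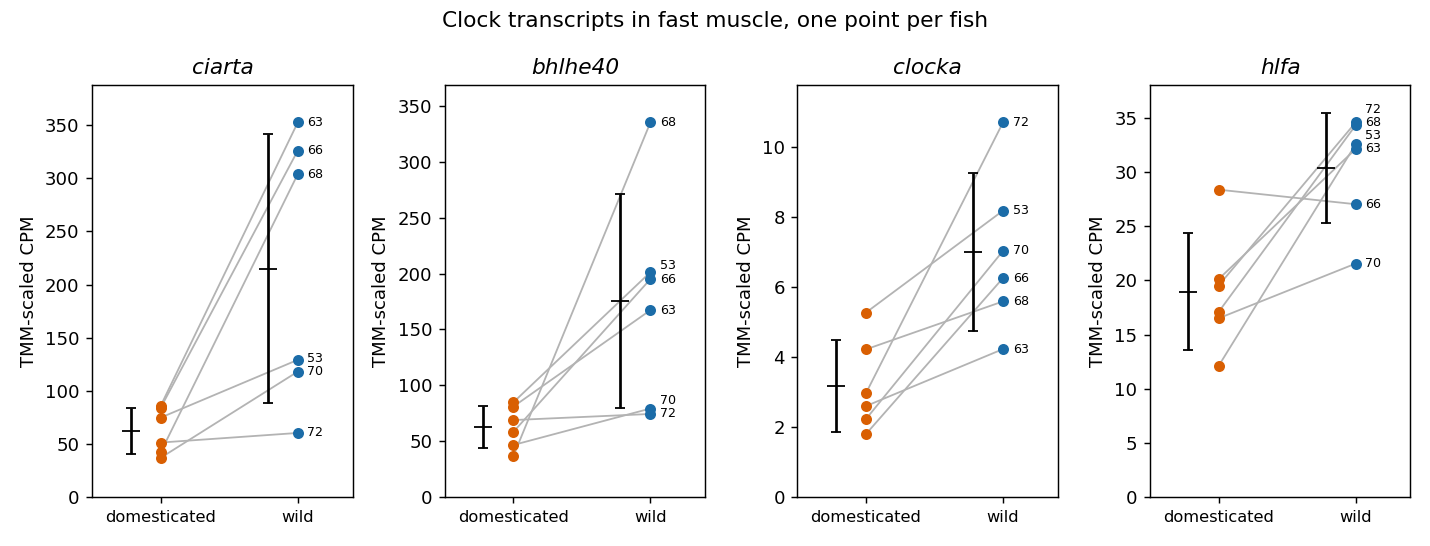
TMM-scaled CPM of ciarta, bhlhe40, clocka and hlfa, 1 point per fish, with domesticated fish on the left and wild fish on the right, grey lines between the fish of a pair and pair numbers beside the wild points. Bars are the mean and SD of 6 fish; the wild points of ciarta and bhlhe40 spread from near the domesticated range to several times above it, and hlfa of pair 66 is the single line that slopes down.

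The gene ciarta encodes a relative of CIART (CHRONO), which in mammals represses CLOCK and BMAL1. It had 36.9 CPM in the lowest domesticated library (D70), 62.98 CPM in the median and 85.9 CPM in the highest (D63), against 60.3 CPM in the lowest wild library (W72), a wild median of 217 CPM and 353 CPM in the highest (W63). Among wild fish W63, W66 and W68 had 353, 326 and 304 CPM, and W53, W70 and W72 had 129, 118 and 60.3 CPM. The domesticated fish were closer together, and W72 lay among them. The means were 62.5 ± 21.7 CPM in domesticated and 215 ± 126 CPM in wild muscle (SD, n = 6 each), a log2 fold change of -1.59 with a standard error (SE) of 0.42. Within pairs the log2 difference ran from -2.85 in pair 68 to -0.23 in pair 72.

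The gene bhlhe40 encodes an E-box repressor (DEC1 in mammals), whose mRNA in mammals also responds to low oxygen and other stimuli outside the clock. It had 36.6 CPM in the lowest domesticated library (D68), 63.5 CPM in the median and 84.7 CPM in the highest (D53), against 74.3 CPM in the lowest wild library (W72), a wild median of 181 CPM and 335 CPM in the highest (W68). W70, with 79.2 CPM, and W72 lay within the domesticated range, and the other wild fish had at least 167 CPM. The means were 62.6 ± 19.1 CPM in domesticated and 175 ± 96.1 CPM in wild muscle (SD, n = 6 each), a log2 fold change of -1.35 (SE 0.36). As for ciarta, pair 68 had the widest difference on the log2 scale (-3.19) and pair 72 the narrowest (-0.11). Without W72 the log2 fold changes were -1.89 for ciarta and -1.55 for bhlhe40.

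The gene clocka encodes the activator CLOCK, and its mRNA cycles little in many mammalian tissues but clearly in zebrafish. It had 1.80 CPM in the lowest domesticated library (D66), 2.78 CPM in the median and 5.26 CPM in the highest (D53), against 4.22 CPM in the lowest wild library (W63), a wild median of 6.64 CPM and 10.7 CPM in the highest (W72). Domesticated D53 lay above W63, and D68, with 4.21 CPM, lay just below it. The means were 3.18 ± 1.31 CPM in domesticated and 6.99 ± 2.25 CPM in wild muscle (SD, n = 6 each), a log2 fold change of -1.15 (SE 0.31). Within pairs the log2 difference ran from -1.82 in pair 72 to -0.39 in pair 68, so the pairs at the ends were the same as for ciarta and bhlhe40, with their places exchanged.

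These clocka values rest on 10 to 47 reads in domesticated and 23 to 77 reads in wild libraries. The 95% exact Poisson interval was 0.861 to 3.30 CPM in D66 and 3.87 to 7.001 CPM in D53, against 2.68 to 6.34 CPM in W63 and 8.44 to 13.4 CPM in W72. The intervals of the outermost fish within a group did not meet, whereas those of neighbouring fish overlapped. As molecular identifiers were not used, such intervals account for counting error alone.

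The gene hlfa encodes a PAR bZIP factor, an activator at D-boxes and an output of the clock. It had 12.1 CPM in the lowest domesticated library (D53), 18.3 CPM in the median and 28.4 CPM in the highest (D66), against 21.6 CPM in the lowest wild library (W70), a wild median of 32.3 CPM and 34.6 CPM in the highest (W72). Domesticated D66 was the single fish above the lowest wild library. The means were 18.9 ± 5.42 CPM in domesticated and 30.4 ± 5.10 CPM in wild muscle (SD, n = 6 each), a log2 fold change of -0.71 (SE 0.22). Pair 66 was higher in the domesticated fish by a log2 difference of 0.07, and the other 5 pairs were lower, down to -1.43 in pair 53.

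Another scaling shifts the fold changes of all 4 genes alike, and it ended the overlap of the groups for hlfa alone. With plain totals hlfa ran from 12.4 to 18.7 CPM in domesticated and from 21.8 to 43.9 CPM in wild libraries, without overlap, and its log2 fold change was -1.11. Relative to the median of all genes it was -0.69 with either scaling. Plain totals left ciarta, bhlhe40 and clocka overlapping, with clocka at 1.18 to 6.78 CPM in domesticated and 2.86 to 12.7 CPM in wild libraries.

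The 4 genes also differed in how much the fish of a group spread. On the log2 scale the SD of ciarta was 0.53 in domesticated and 1.03 in wild fish, and that of bhlhe40 was 0.47 in domesticated and 0.84 in wild fish. For clocka it was 0.56 in domesticated and 0.45 in wild fish, and for hlfa 0.40 in domesticated and 0.27 in wild fish. With TMM, spread among wild fish was thus wide in the repressors and narrow in clocka and hlfa. With plain totals wild clocka ran from 2.86 to 12.7 CPM and wild bhlhe40 from 85.5 to 317 CPM. The narrow spread of clocka among wild fish therefore depends on the scaling. In domesticated fish plain totals gave 1.18 to 6.78 CPM for clocka and 12.4 to 18.7 CPM for hlfa.

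Ratios between genes within a library need no scaling factor. Their level depends on transcript length and is not read here, while their difference between groups does not. The log2 ratio of ciarta to clocka averaged 4.27 ± 0.81 in domesticated muscle and 4.72 ± 1.46 in wild muscle (SD, n = 6 each), a difference of -0.44. The ratio of ciarta to hlfa had the widest difference, -0.88, with 1.69 ± 0.56 in domesticated and 2.57 ± 1.06 in wild fish. The ratio of bhlhe40 to hlfa differed by -0.65 on the log2 scale, with 1.71 ± 0.66 in domesticated and 2.35 ± 0.77 in wild fish. The ratio of clocka to hlfa differed by -0.44, with -2.59 ± 0.92 in domesticated and -2.15 ± 0.51 in wild fish. The 2 smallest differences were -0.24 for ciarta over bhlhe40 and -0.21 for bhlhe40 over clocka. All 6 differences were smaller than the SD between wild fish, and that of ciarta to hlfa alone was larger than the SD between domesticated fish.

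Relations between the genes were taken within each group, since the group means differ by choice. With 6 pairs of genes in 2 groups, 12 relations were computed on log2 CPM. Each exact p was taken over the 720 permutations of 6 fish. Before adjustment 2 of the 12 had an exact permutation p under 0.05, and 0 did after Benjamini-Hochberg adjustment. No relation between the levels of these genes therefore passed the threshold after adjustment in either group. As no library has a sampling time, such relations across fish can neither show nor exclude a phase.

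**Figure D2:**
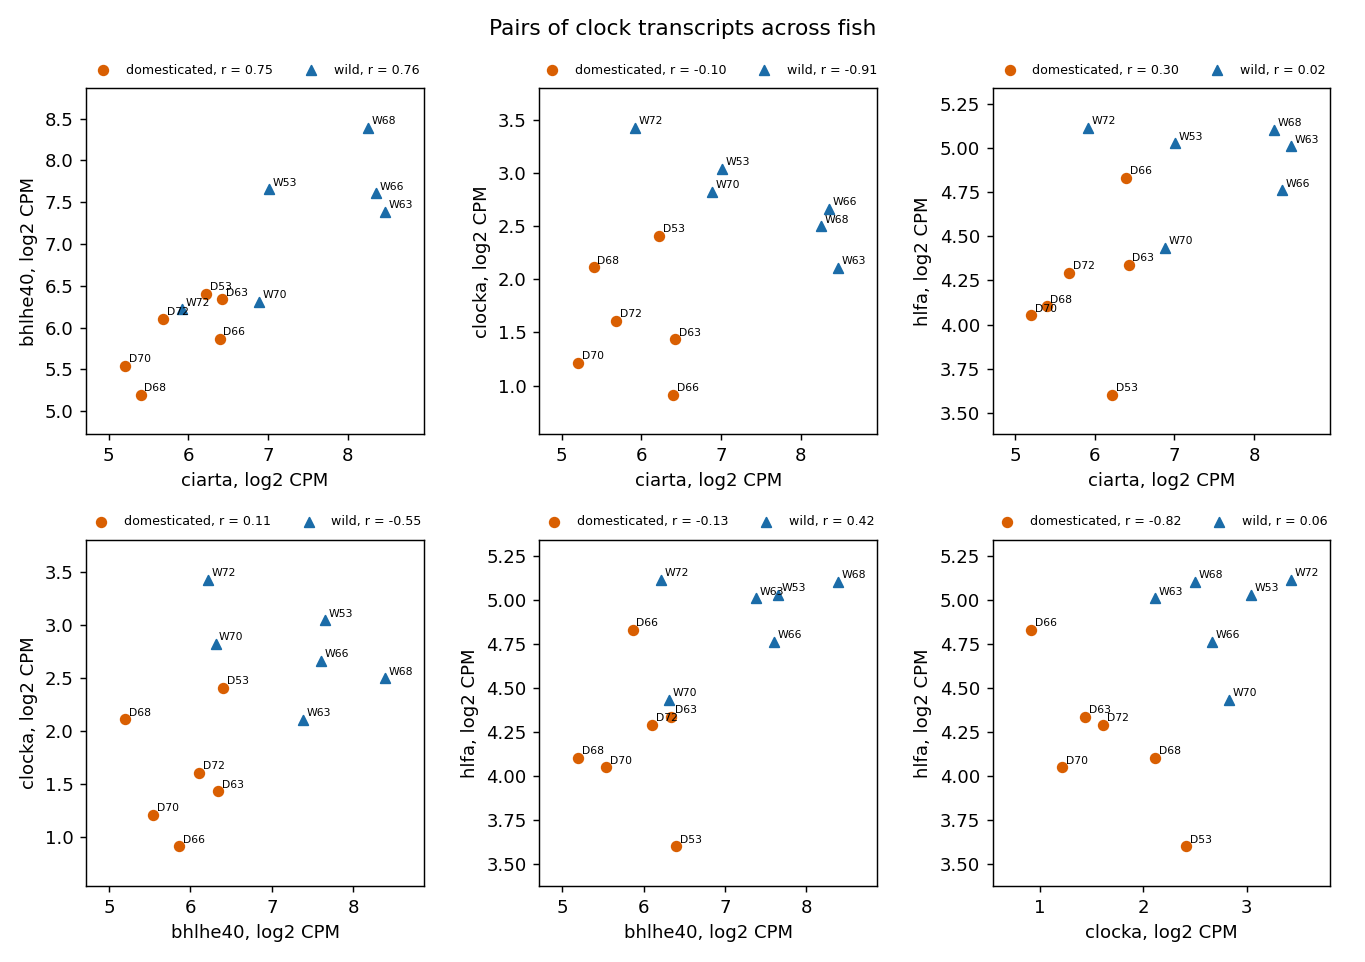
Each panel plots 2 of the 4 genes against each other in log2 CPM, with 6 domesticated fish as circles and 6 wild fish as triangles, each labelled with its library. Pearson's r stands above each panel by group; ciarta and bhlhe40 go together at 0.75 in domesticated and 0.76 in wild fish, and ciarta and clocka go apart in wild fish at -0.91.

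The relation between the repressors was positive in both groups and passed the test in neither. The Pearson r of ciarta and bhlhe40 was 0.75 over the 6 domesticated fish (two-sided exact permutation p = 0.104, adjusted 0.342) and 0.76 over the 6 wild fish (exact p = 0.114, adjusted 0.342). Spearman's rho was 0.66 in domesticated (exact p = 0.175, adjusted 0.70) and 0.49 in wild fish (exact p = 0.356, adjusted 0.752). Without D68 and D70, the fish farthest from the median of ciarta, r was 0.07 in domesticated fish, so that relation rests on these fish. Without W63 and W72 it was 0.70 in wild fish (exact p = 0.292).

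The strongest relation was that of the activator clocka with ciarta in wild fish, which was negative and did not pass after adjustment. The Pearson r was -0.91 over 6 wild fish (exact permutation p = 0.0111, adjusted 0.133), and rho was -0.89 (exact p = 0.0333, adjusted 0.400). W63, W66 and W68, the 3 wild fish with the most ciarta, had the least clocka, and W72 had the least ciarta and the most clocka. Without W63 and W72 r was -0.83 over 4 fish (exact p = 0.333), and with 4 fish the exact p moves in coarse steps. Leaving out W72 alone gave -0.81 (exact p = 0.117) and leaving out W68 gave -0.91 (exact p = 0.05). In the 6 domesticated fish r was -0.10 (exact p = 0.836), and a test of domesticated against wild r was not made. With plain totals the wild r was -0.28 (exact p = 0.564), so this relation depends on the scaling.

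In domesticated fish the strongest relation was a negative one of clocka with hlfa, which did not pass after adjustment either. The Pearson r was -0.82 over 6 fish (exact permutation p = 0.0319, adjusted 0.192), and rho was -0.66 (exact p = 0.175, adjusted 0.70). D53 had the most clocka and the least hlfa, and D66 had the reverse; without both, r was -0.09 (exact p = 0.917), so the relation rests on these fish. With plain totals it was 0.10 (exact p = 0.851), a change of sign. With plain totals clocka and hlfa of wild fish were the single relation under 0.05, at r = 0.95 (exact p = 0.0194), where TMM gave 0.06 (exact p = 0.890). The other relations lay between -0.55, for bhlhe40 and clocka in wild fish, and 0.42, for bhlhe40 and hlfa in wild fish.

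A list of 84 names of other clock genes led to 44 genes, of which 38 had a read and 21 passed the filter. In domesticated against wild muscle 3 of the 21 were lower and 0 were higher at a limma adjusted p under 0.05, where 6.5% of all genes tested were lower and 6.69% higher. Without any one of D68, D70, D72, W53, W66 and W70 the count was 1 of these genes, nfil3-5. The log2 fold change was below 0 in 19 of the 21, with a median of -0.51, beside -0.02 over all genes tested. The share of all genes below 0 was not counted. As the 21 genes were measured in the same libraries, they are not 21 separate results. In all 6 pairs the domesticated fish were lower in 3 of the 21 (nfil3-5, timeless and per1b), beside 9.1% of all genes. Every domesticated library was below every wild one in 1 of the 21 (nfil3-5), beside 2.17% of all genes.

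**Figure D3:**
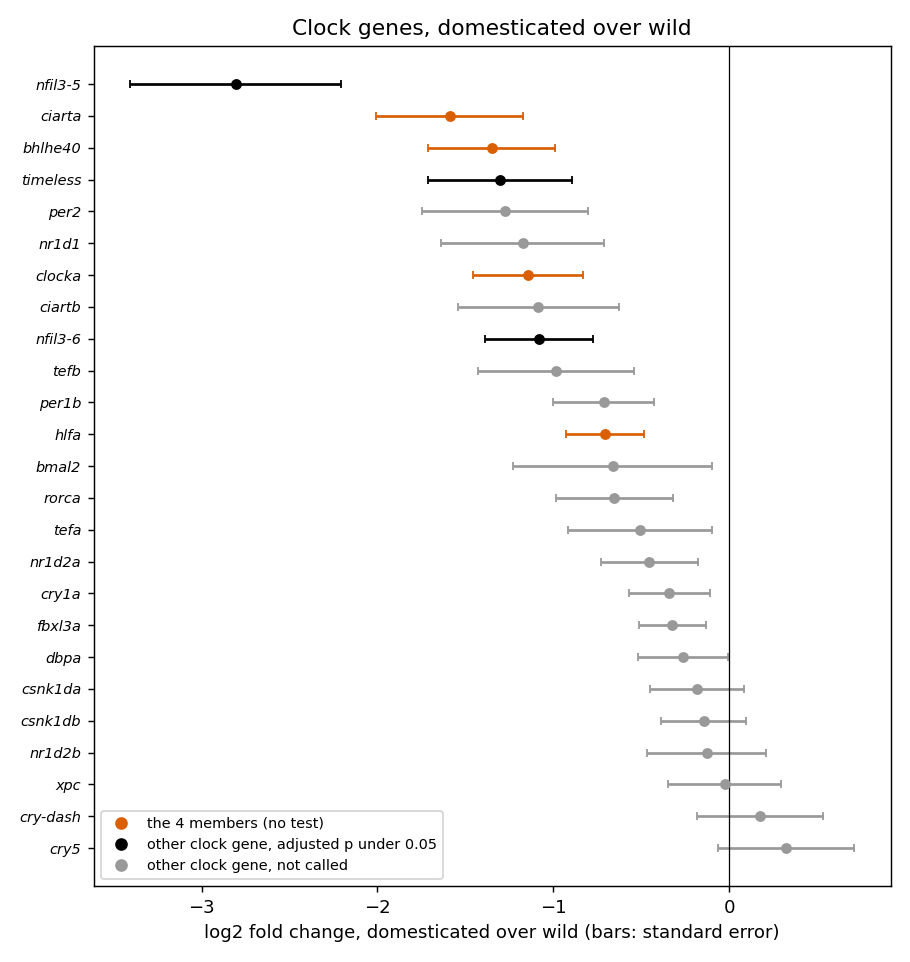
Log2 fold change of domesticated over wild muscle for the 4 chosen genes (orange, no test), 3 other clock genes with an adjusted p under 0.05 (black) and 18 further clock genes (grey), with bars of 1 standard error. Values run from -2.81 for nfil3-5 to 0.32 for cry5, and 2 genes, cry-dash and cry5, lie above 0.

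Of the 3 genes that passed, nfil3-5 and nfil3-6 are of the NFIL3 family, and in the list of PAR bZIP and NFIL3 genes 2 of 5 tested genes passed. The gene nfil3-5 had 0.336 to 2.16 CPM in domesticated fish (median 0.915) and 2.5 to 36.2 CPM in wild fish (median 7.25). No domesticated fish reached the lowest wild one, and W66 stood above the rest of its group. The log2 fold change was -2.81 (SE 0.60, limma adjusted p = 0.0102), and without W66 it was -2.33 (adjusted p = 0.0181). Domesticated libraries held 3 to 10 reads of this gene, so that the fitted fold change leans on the pseudocount of 0.5.

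Its relative nfil3-6 had 49.7 to 183 CPM in domesticated fish (median 58.1) and 109 to 210 CPM in wild fish (median 148). D66 was higher than its wild partner and the other 5 domesticated fish were lower than every wild fish. The log2 fold change was -1.08 (SE 0.31, limma adjusted p = 0.0321). The call held without D53, D66, W63 or W72 and was lost without any one of D63, D68, D70, D72, W53, W66, W68 and W70 (adjusted p up to 0.0889), and with no filter on low counts (0.101).

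The gene timeless, a namesake of a fly clock gene that in vertebrates is known mainly for replication forks, had 0.539 to 1.92 CPM in domesticated fish (median 1.52) and 1.65 to 5.62 CPM in wild fish (median 4.39). The groups overlapped at W63, with 1.65 CPM, and W68, with 1.91 CPM. The log2 fold change was -1.30 (SE 0.41, limma adjusted p = 0.0464). With the replicate block, which fits the pairs, the adjusted p was 0.0702, and the call held only without D53, W63 or W68 among the 12 libraries left out in turn (adjusted p up to 0.101 in the other 9).

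Among the activators bmal2, a partner of CLOCK, was tested. The names searched for bmal1 led to no gene, so bmal1 was not examined. It had 1.23 to 4.21 CPM in domesticated fish (median 2.93) and 0.551 to 8.88 CPM in wild fish (median 7.198), a log2 fold change of -0.66 (limma adjusted p = 0.464). W63 was the lowest library of all with 3 reads. Leaving it out was the single alternative that called bmal2 (log2 fold change -1.21, adjusted p = 0.0401). Like clocka, the gene thus had its lowest wild value in W63.

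In the list of repressors, which also holds timeless, cry-dash and cry5, 7 were tested, 1 (timeless) passed and 5 had a log2 fold change below 0. The gene per1b, a core repressor, was lower in all 6 pairs, with 64.3 ± 17.6 CPM in domesticated and 110 ± 43.1 CPM in wild muscle (SD, n = 6 each), yet did not pass (log2 fold change -0.71, limma adjusted p = 0.109). The light-inducible per2 had a log2 fold change of -1.27 (adjusted p = 0.0838) at under 5 CPM in every library. The paralog of ciarta, ciartb, had -1.09 (adjusted p = 0.127). Leaving out W72 was the single alternative that called it (-1.46, adjusted p = 0.0232). Of the cryptochromes, cry1a had -0.34, cry-dash 0.18 and cry5 0.32 on the log2 scale, with adjusted p of 0.340, 0.783 and 0.613.

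Among the nuclear receptors, which repress (nr1d) or activate (ror) the bmal genes, 4 were tested and 0 passed. The log2 fold change of nr1d1 was -1.17 (limma adjusted p = 0.104). Leaving out D63 was the single alternative that called it (-1.49, adjusted p = 0.0308). The log2 fold change was -0.45 for nr1d2a, -0.13 for nr1d2b and -0.65 for rorca, with adjusted p of 0.285, 0.839 and 0.203. Of the PAR bZIP relatives of hlfa, tefb had -0.99, tefa -0.51 and dbpa -0.26 (adjusted p of 0.150, 0.436 and 0.524). The kinase and ligase genes csnk1da, csnk1db and fbxl3a had -0.18, -0.14 and -0.32, and 0 of the 3 passed. Of the genes that light induces in zebrafish, per2, cry5, tefa and xpc were tested, with log2 fold changes from -1.27 to 0.32, and 0 passed.

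Of the clock genes outside the chosen 4, the single tested activator, bmal2, did not pass, and bmal1 was not found by name. In the list of repressors per1b, per2, cry1a and ciartb had fold changes below 0 and did not pass. Only cry-dash and cry5 of that list lay above 0, and their action as repressors was not tested. The single gene of the list past the threshold was timeless, known in vertebrates mainly for replication forks. The labels give a time for no library, so none could be read from these levels, and the part of sampling time in the differences cannot be told apart from the group.

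**Figure D4:**
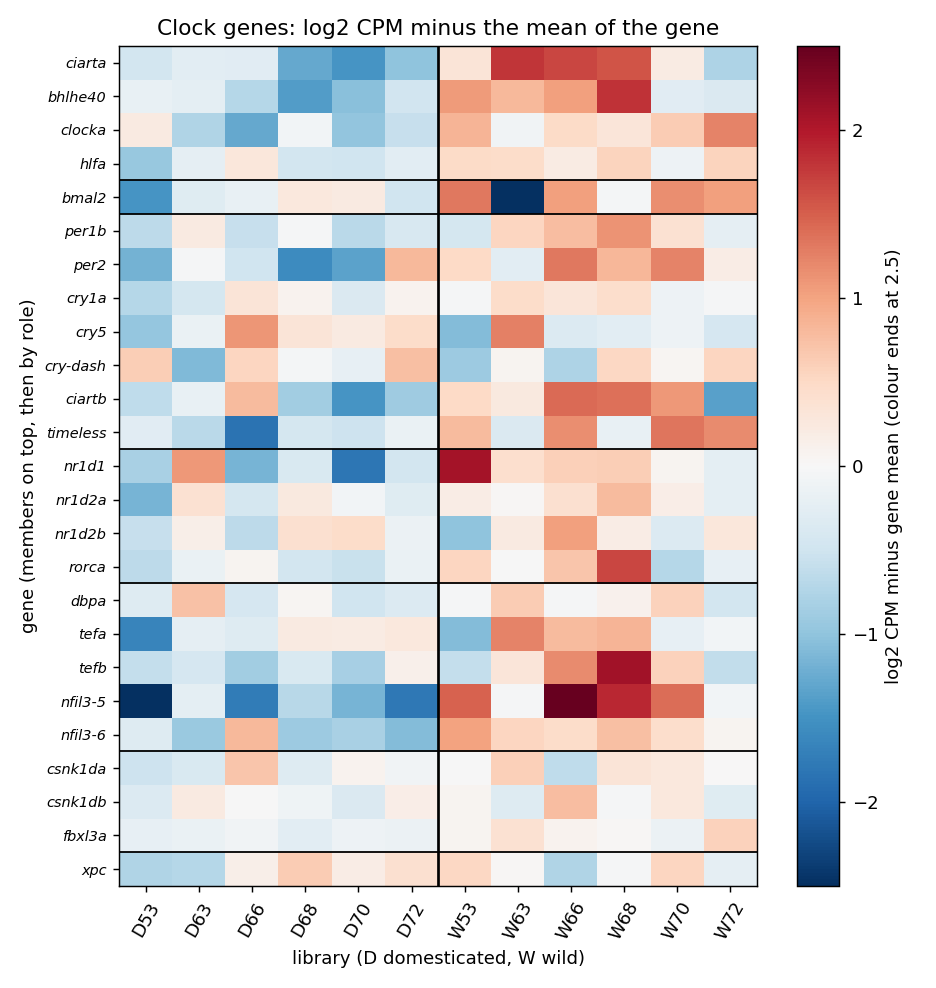
Log2 CPM minus the mean of the gene for the 4 chosen genes (top) and 21 other clock genes ordered by role, in 6 domesticated libraries on the left and 6 wild libraries on the right; red is above and blue below the mean, and colours end at 2.5. Red cells of the deepest shades include nfil3-5 in W66 (36.2 CPM), tefb in W68 (10.49 CPM) and nr1d1 in W53 (17.8 CPM), and the wild library W63 stands out in blue for bmal2 (0.551 CPM).

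Clock genes with 1 annotated transcript passed the filter more often than those with more. The shares over all genes are not given here, and the part of read counting was not tested. All 4 chosen genes have 1 annotated transcript. Of the 16 other clock genes with 1 transcript 15 were tested, and of the 28 with more transcripts 6 were tested and 6 had 0 reads in every library (clockb, tipin, hlfb, dbpb, csnk1a1 and lpin1a). The tables count reads per transcript and set 13.4% of the aligned reads aside as ambiguous on average. Values of 0 for clockb, the paralog of clocka, and hlfb, the paralog of hlfa, therefore say little on those genes. Among the tested genes nfil3-5, tefa, tefb, nr1d2b and csnk1db have 2 transcripts and per2 has 6. Reads shared by their transcripts may be missing from their counts.

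Likeness to each gene was described by Pearson's r over the 12 libraries after centring each group on its mean, among 5758 genes that averaged 5 CPM or more. Closest to ciarta were mych, a relative of the MYC proto-oncogene (r = 0.94), klf6a, a Kruppel-like factor (0.90), and hspa1b, an inducible heat shock protein 70 gene (0.90). The gene hspa1b had 4.88 to 20.7 CPM in domesticated fish and 5.97 to 273 CPM in wild fish, and W72 was again the wild fish within the domesticated range. Its log2 fold change was -2.77 (limma adjusted p = 0.0294), that of mych was -1.38 (adjusted p = 0.0303) and that of klf6a was -0.94 (adjusted p = 0.0613). The most alike clock gene was bhlhe40, at place 50 with r = 0.76.

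Closest to bhlhe40 were genes of oxidative metabolism, cox6b2 and ndufa4a of the respiratory chain (r = 0.90 and 0.87) and gcdhb of lysine breakdown (0.88). Of these gcdhb was higher in domesticated fish (log2 fold change 0.83, limma adjusted p = 0.0294), while cox6b2 and ndufa4a did not pass (0.88 and 0.79, adjusted p of 0.0623 and 0.137). The most alike clock gene was rorca (r = 0.78, place 29), with r = 0.15 within domesticated and 0.92 within wild fish.

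Closest to clocka were trim33l (r = 0.91), gmeb2 (0.87) and ncdn (0.87). The gene trim33l had 2.69 to 8.07 CPM in domesticated fish and 6.79 to 27.8 CPM in wild fish, with a log2 fold change of -1.60 (limma adjusted p = 0.00961). The most alike clock gene was cry-dash (r = 0.11, place 2376). The least alike was cry5, at place 5666 with r = -0.74 (-0.74 within domesticated and -0.75 within wild fish), followed by csnk1da (-0.65) and tefa (-0.61), and clocka was the least alike clock gene for ciarta (-0.55), bhlhe40 (-0.26) and hlfa (-0.51). Closest to hlfa were the titin gene ttn.1 (r = 0.90), si:ch211-266g18.10 (0.89) and jph1a, which joins the membranes of excitation-contraction coupling (0.86), and among clock genes cry1a (r = 0.67, place 111). The points of all these correlations share their libraries and scaling factors, and they were computed with TMM alone. In domesticated fish hlfa ran from 12.1 to 28.4 CPM with TMM and from 12.4 to 18.7 CPM with plain totals. How far its likeness to ttn.1 and the others rests on the scaling was not tested.

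Immediate early genes, which rise within minutes of handling, stretch or stress, were at their lowest in the same fish as ciarta and bhlhe40. Their highest sums and the highest bhlhe40 values fell in the same few fish, in another order. The wild fish with the highest sum was not that with the most ciarta. The sum over 12 such genes, 9 of them tested, was 201 to 495 CPM in domesticated fish (median 351) and 398 to 2718 CPM in wild fish (median 1487), and 6 of the 9 passed, lower in domesticated fish (fosab, jun, junbb, atf3, ier2b and dusp1), as did 6.5% of all genes tested, while fosl1a had 0 reads. W72 had the lowest sum of the wild fish and also the lowest ciarta and bhlhe40. D68 and D70, with 201 and 206 CPM, had the lowest sums of the domesticated fish and also the lowest ciarta and bhlhe40. At the upper end of the wild fish W53 had the highest sum (2718 CPM) with 129 CPM of ciarta. W63, with the most ciarta (353 CPM), had a sum of 1034 CPM, near that of W70 (985 CPM, ciarta 118 CPM). Among domesticated fish D63 had both the highest sum and the most ciarta (85.9 CPM), while D66, with 84.1 CPM of ciarta, had a sum of 338 CPM. For bhlhe40 the fish with the highest sums had the highest values, though the top fish differed in both groups. Among wild fish these were W53, W66 and W68 (sums 2718, 2335 and 1940 CPM, bhlhe40 201, 195 and 335 CPM). Among domesticated fish they were D63 and D53 (sums 495 and 456 CPM, bhlhe40 80.9 and 84.7 CPM). W66 and W68 were also high in ciarta, with 326 and 304 CPM. The part of immediate early genes in the result was not tested.

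**Figure D5:**
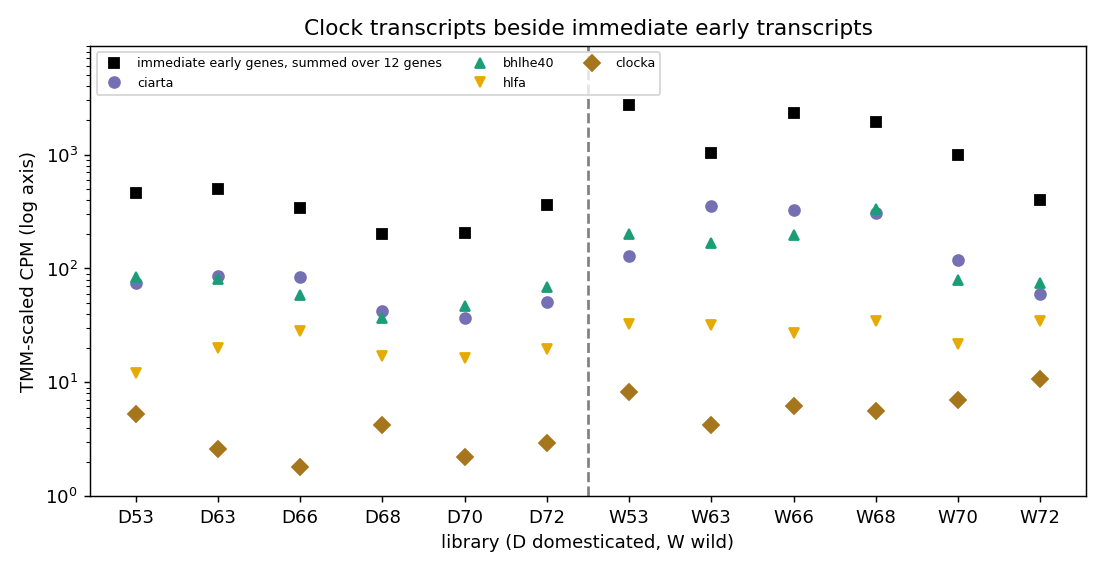
TMM-scaled CPM on a log axis of ciarta, bhlhe40, hlfa, clocka and the sum of 12 immediate early genes in each library, domesticated on the left and wild on the right of the dashed line. The sum lies at 201 to 495 CPM in domesticated and 398 to 2718 CPM in wild libraries, and W72 is the wild library where the sum, ciarta and bhlhe40 are lowest and clocka is highest.

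Markers of other cell types also moved with the groups, beside the 6.69% of all genes tested that were higher in domesticated fish. Erythrocyte markers summed to 333 to 1106 CPM in domesticated and 104 to 602 CPM in wild libraries (3 of 3 tested genes higher in domesticated fish, slc4a1a at 0). Most of that sum was ank1a, with 308 to 1088 CPM in domesticated and 97.3 to 591 CPM in wild libraries. The means of rhag were 15.5 CPM in domesticated and 4.05 CPM in wild fish, and those of alas2 11.8 and 6.11 CPM. The haemoglobin names hbba1 and hbaa1 had no match, so the sum says little on erythrocyte content. Slow or oxidative muscle markers summed to 139 to 678 CPM in domesticated and 17.3 to 118 CPM in wild libraries (3 of 4 higher, tnnt1 and tnnt2a at 0). Fibroblast markers summed to 4078 to 23314 CPM in domesticated and 267 to 7378 CPM in wild libraries (1 of 3 higher, col1a1a at 0), and the adipocyte marker fabp4a was higher in domesticated fish. Of the tested markers of leukocytes (4), endothelium (2) and nerve (1), 0 passed. The markers at 0 (slc4a1a, tnnt1, tnnt2a and col1a1a, and fosl1a among the immediate early genes) have 2 or more annotated transcripts. Their values of 0 therefore say little, as for clockb and hlfb. The part of the other cell types in the differences of the clock genes was not tested.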

How the data were processed

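RNA of fast muscle was depleted of ribosomal RNA, made into directional libraries and sequenced on 1 lane. In the tables the authors deposited, each of 80392 transcripts has a read count, a whole number, per library. Their 5 summary lines (not unique 51.5%, ambiguous 13.4% and no feature 11.2% of aligned reads on average) were left out. Trimmomatic 0.33, STAR and HTSeq are named in the submitters' processing notes, without settings, strand use or build (not given in the sources used here). Symbols came from the RefSeq gene table of O_niloticus_UMD_NMBU.

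Counts were summed per gene. Genes were kept with a depth-scaled count of 10 in at least 6 libraries and 15 counts in all. Log2 CPM (pseudocount 0.5, TMM-scaled totals) was tested with limma 3.58.1 in R 4.3.3 (trend, robust, Benjamini-Hochberg, threshold 0.05), in place of a count test, because the tab-separated columns under a comma-separated name could not be entered as counts in the unit check used here. Fold changes, always domesticated over wild, understate the change of low genes. In a library 3 counts, the limit that 0 counts allow, equal 0.336 to 0.665 CPM. Relations used exact permutation in Python 3.11.15 with NumPy 2.4.6. SciPy 1.17.1 gave the ranks and the Poisson intervals. Scripts were tested on simulated data.

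The labels pair the fish by number. Deviations from the group mean had r = 0.21, 0.12, 0.046, -0.10, -0.089 and 0.046 for pairs 53, 63, 66, 68, 70 and 72 (mean 0.039, other pairings -0.0067). Alternatives were 2 other scalings, 2 other filters, a pseudocount of 2, voom weights, the replicate block and each library left out. The 4 genes, the lists and the naming rule (called clock genes, core clock genes, and the 3 genes most like each of the 4) were chosen with earlier results of these data known. Paralogs, common in fish, may share reads.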

Additional observations from a re-analysis of the deposited data

Results flagged for a closer look

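In 6 of 50 groups of 6 fish, 25 clock genes in 2 groups, a single fish stood far from the others on the CPM scale, without logs. For normally distributed values chance gives about 1 in 20 groups, or 2.5 here. CPM need not be so distributed, and every flagged fish was the highest of its group. The count is therefore not read as an excess over chance. None of the flagged groups concerned ciarta, bhlhe40, clocka or hlfa. Among domesticated fish, D66 had 183 CPM of nfil3-6 where the next fish had 83.9 CPM. D63 had 8.87 CPM of nr1d1, next to 3.11 CPM, and 27.7 CPM of dbpa, next to 17.3 CPM. Among wild fish, W66 had 36.2 CPM of nfil3-5, next to 9.94 CPM. W53 had 17.8 CPM of nr1d1, next to 6.40 CPM, and W63 had 15.4 CPM of cry5, next to 5.86 CPM.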

How the results depend on the processing

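The log2 fold changes of the 4 genes stayed below 0 under all 19 alternatives, from -1.995 to -1.38 for ciarta, -1.76 to -1.12 for bhlhe40, -1.55 to -0.98 for clocka and -1.11 to -0.56 for hlfa. With plain library totals hlfa stood at -1.11 and 680 genes were called in place of 1112, with 1 relation between genes under 0.05 in place of 2, and clocka and hlfa of domesticated fish had r = 0.0994, a change of sign; plain totals differ from TMM only in the scaling factors. Leaving out 1 library gave 628 (without D70) to 1349 (without W63) called genes, 1 to 4 other clock genes and 1 to 2 relations. In those fits the filter asked for 5 libraries in place of 6, so that more genes were tested, and the cause of the changes was not tested. With no filter on low counts 1 clock gene (nfil3-5) was called, as 31551 genes were then tested. Without the 2 fish farthest from the median 0 relations were under 0.05, but only 4 fish were then left and the exact p moved in coarse steps. With the replicate block for the pairs 1062 genes were called, 911 of them shared, and 2 other clock genes, timeless being lost; it changed no other clock call. The call of nfil3-5 held under all 19 alternatives (limma adjusted p 0.00331 to 0.0333), that of timeless was lost under 14 and that of nfil3-6 under 9. No alternative changed how reads were counted per transcript. Depth limits clocka, timeless, per2 and nfil3-5 most. The DESeq2 test was not run, because the columns could not be entered as counts.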
